A study of Mus musculus with 77 samples.

Results

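The genes described here are those with which Leydig cells make androgen: Star, Cyp11a1, Cyp17a1, Hsd3b1, Hsd3b6, Hsd17b3 and Akr1c14, with the Leydig hormone gene Insl3 and the luteinizing hormone receptor gene Lhcgr. They were taken as a list of 9 genes, of which 7 were measured by a probe set listed with that gene alone, among 19938 genes tested on 77 arrays. The probe set for Insl3 is assigned to several genes and none was listed for Lhcgr, so neither has a value here. Each of the 7 measured genes had 1 probe set, and their mean signal over all arrays ranked between the 34.51 percentile (Akr1c14) and the 86.93 percentile (Cyp17a1) of the genes tested.

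The arrays came from neonatal mouse testes with the RiboTag allele, which puts an epitope tag on a ribosomal protein in cells that express Cre recombinase, so that RNA on the ribosomes of those cells can be immunoprecipitated (IP). The series' design text assigns the Stra8-cre and Ngn3-cre lines to germ cells and the Amh-cre line to Sertoli cells, and no line tags Leydig cells. Total RNA holds every cell of the testis. The Amh line (FVB/N strain) gave 16 IP and 14 total arrays, the Ngn3 line (C57BL/6) 4 IP and 4 total arrays, and the Stra8 line (FVB/N) 16 IP and 23 total arrays. All animals, those at time 0 included, had been given BDAD, an inhibitor of retinoic acid synthesis, for 9 days. Those of the later groups then received retinoic acid (RA) by injection and are labelled 4h, 12h, 24h, 48h, 4d, 6d or 8d in the Stra8 and Amh lines and 4h in the Ngn3 line. No total RNA of the Amh line at 4h was used here. The sources used here do not give the days of age, the dose of RA or any pooling of animals, and neither vehicle-treated nor uninjected animals of the later times are among the groups. A change from time 0 therefore cannot be told apart from growth, the injection itself or the withdrawal of BDAD. Strain and line cannot be told apart for Ngn3.

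In the steroid pathway, Star carries cholesterol to the inner mitochondrial membrane, Cyp11a1 cleaves its side chain to give pregnenolone, 3β-hydroxysteroid dehydrogenases such as Hsd3b1 and Hsd3b6 and the lyase Cyp17a1 convert pregnenolone to androstenedione, and Hsd17b3 reduces androstenedione to testosterone. Akr1c14 is a 3α-hydroxysteroid dehydrogenase that inactivates dihydrotestosterone and is used in rodents as a gene of immature adult-type Leydig cells. Mice have a fetal and an adult generation of Leydig cells, with the adult generation arising after birth. Hsd3b6 is known in the mouse as an isoform of the adult generation, whereas Hsd3b1 is used by both. In the fetal mouse testis the last step lies in Sertoli cells, which express Hsd17b3, and it shifts to Leydig cells as the adult generation matures.

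Values are log2 of the deposited intensity, changes are log2 differences ± the standard error (SE) of one limma model over all arrays, and a call needed both a difference of 2-fold or more and an adjusted p (Benjamini-Hochberg) below 0.05. Array medians lay between 252.6 and 300.5 intensity units. Whether replicates are separate animals is not stated in the labels, and p-values then reflect only how far these samples spread, which may be technical. In bulk RNA, fewer cells of a type and less RNA per cell cannot be told apart. The tagged cell types were checked against their markers. All 10 germ cell markers were lower in Amh IP than in Stra8 IP RNA, and 10 of 11 measured Sertoli cell markers were higher. Over all genes, 7.54% were lower and 9.26% higher. Some arrays stood apart from the rest of their label. The Amh arrays labelled 4d had high levels of the RA target genes Cyp26a1 (8.18 to 8.75) and Rarb (8.56 to 8.88), while the Amh IP arrays labelled 4h had low levels (6.66 and 6.78 for Cyp26a1, 7.18 and 7.16 for Rarb). In Stra8 total RNA labelled 4h, replicates 2 and 3 had low Cyp26a1 (6.27 and 6.54) and replicate 1 a higher level (7.43). The interquartile range of signal was narrow in 3 arrays, Stra8 total 4h replicate 1 and 24h replicates 3 and 4 (2.58 to 2.65, against at least 2.88 in the others). All arrays were kept under their labels, and the counts of called genes are given with and without them.

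Recovery with germ cell ribosomes was low for every measured gene. IP RNA was lower than total RNA for 7 of 7 genes in the Stra8 line, where 5.37% of all genes tested were lower, and for 7 of 7 in the Ngn3 line, where 6.75% were lower. The median difference of the 7 genes was -2.01 in the Stra8 line and -2.13 in the Ngn3 line, beside medians over all genes of 0.04 and 0.054. Low recovery in Stra8 IP RNA was shared by markers of other cell types. The Sertoli marker Cst9 had -3.01, the macrophage marker Lyz2 -2.55, the endothelial marker Emcn -1.96 and the myoid marker Acta2 -1.9. No marker of these lists was called higher there, though not every one was called lower. Cyp11a1 lay between 7.72 and 9.88 (median 8.19) in 16 Stra8 IP arrays, against 10.05 to 11.12 (median 10.66) in 23 Stra8 total arrays. Every IP array was below every total array, a difference of -2.32 ± 0.13 (limma adjusted p = 1.20e-21). Star lay between 7.89 and 8.98 (median 8.31) in Stra8 IP RNA and between 9.62 and 11.06 (median 10.28) in Stra8 total RNA, again without overlap (-1.88 ± 0.11, adjusted p = 2.19e-21). Cyp17a1 (-2.03), Hsd3b1 (-2.01) and Akr1c14 (-1.47) also separated fully. For Hsd3b6 (-2.34 ± 0.22) and Hsd17b3 (-1.54 ± 0.14) the IP and total arrays overlapped, and both groups pool 8 times.

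The Ngn3 line had 4 arrays a fraction. Its differences were between -1.53 ± 0.47 for Hsd3b6 (limma adjusted p = 0.00458) and -2.48 ± 0.28 for Cyp11a1 (adjusted p = 8.95e-11). IP and total arrays overlapped for no gene of the 7, but the share of all genes that separate in this way was not counted. In this comparison 11690 of 19938 genes tested had an unadjusted limma p under 0.05. Star had 7.97, 8.20, 8.54 and 8.17 in Ngn3 IP RNA, against 10.17, 10.12, 10.76 and 10.37 in Ngn3 total RNA.

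Sertoli cell ribosomes divided the genes. In the Amh line 4 of 7 were lower in IP than in total RNA (3.94% of all genes were lower and 1.1% higher): Cyp11a1 by -2.49 ± 0.15, Cyp17a1 by -2.46 ± 0.17, Hsd3b1 by -2.41 ± 0.08 and Hsd3b6 by -2.21 ± 0.25. The other genes, Star, Hsd17b3 and Akr1c14, were not called. In Amh IP RNA Star lay between 9.92 and 11.39 (median 10.28), against 9.10 to 11.19 (median 10.29) in Amh total RNA, with broad overlap. Its difference over the 7 times with both fractions was 0.12 ± 0.12 (limma adjusted p = 0.373). A comparison at 8d alone was added after the values were seen. There Star had 9.99 and 10.18 in Amh IP RNA, against 11.12 and 11.19 in Amh total RNA. The difference was -1.07 ± 0.33 (limma adjusted p = 0.00621), where 5.76% of all genes were lower. At time 0 it was -0.13 ± 0.33. At 6d the IP arrays were the higher, with 10.38 and 11.06 against 9.10 and 10.15 in total RNA. The same held at labelled 4d, with 11.07 and 11.39 against 10.47 and 10.73. Neither of these times was tested alone. Hsd17b3 lay between 9.03 and 11.65 (median 10.48) in Amh IP RNA and between 7.77 and 11.04 (median 9.45) in Amh total RNA. The IP arrays were higher by 0.89 ± 0.15 (adjusted p = 1.21e-06), which falls short of 2-fold; with each array centred on its median the difference was 1.02 and was called. That centring moves the median of all genes in this comparison to 0.245, against 0.116 as reported. Akr1c14 lay between 6.39 and 8.31 (median 7.23) in Amh IP RNA and between 7.43 and 8.70 (median 8.12) in Amh total RNA, a difference of -0.85 ± 0.10 (adjusted p = 5.79e-10) that is below 2-fold. At 8d alone it was -1.19 ± 0.28 (adjusted p = 0.000344) and was called, against -0.46 ± 0.28 at time 0. All 7 genes were called at 8d, 6 lower and Hsd17b3 higher, where 5.76% of all genes were lower and 4.7% higher.

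The lines were set against each other directly. In the difference of IP minus total RNA, Amh line less Stra8 line over the 7 shared times, 2 of 7 genes were called higher, against 9.26% of all genes. They were Hsd17b3 (2.65 ± 0.21, limma adjusted p = 4.32e-16) and Star (2.03 ± 0.17, adjusted p = 2.82e-15). Akr1c14 differed by 0.71 ± 0.14 (adjusted p = 2.22e-05), below 2-fold. Cyp11a1 (-0.13 ± 0.21), Cyp17a1 (-0.35 ± 0.24), Hsd3b6 (-0.10 ± 0.35) and Hsd3b1 (-0.34 ± 0.11) were not called. When the 4h-labelled and 4d-labelled Amh arrays were left out, the same 2 genes were called (2.85 for Hsd17b3 and 2.03 for Star), and the difference was 0.15 ± 0.23 for Cyp11a1, -0.12 ± 0.26 for Cyp17a1 and -0.22 ± 0.12 for Hsd3b1.

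IP RNA of the Amh and Stra8 lines gave the same 2 calls, out of 9.26% of genes higher. Star averaged 10.43 in Amh IP RNA and 8.41 in Stra8 IP RNA (2.02 ± 0.12, limma adjusted p = 1.01e-21, 16 arrays each), and no array of one line reached the range of the other. Hsd17b3 averaged 10.54 in Amh IP RNA and 8.06 in Stra8 IP RNA (2.48 ± 0.14, adjusted p = 1.44e-21). Its ranges overlapped, 9.03 to 11.65 in Amh IP RNA against 6.68 to 10.44 in Stra8 IP RNA. Cyp17a1 was lower in Amh IP than in Stra8 IP RNA by -0.96 ± 0.16 (adjusted p = 8.48e-07), just short of 2-fold. It was called, at -1.00 to -1.06, without any 1 of 5 arrays (Stra8 IP 0 and 24h replicate 1, Amh IP 0 and 24h replicate 1, and Amh IP 6d replicate 2), and was -0.66 ± 0.19 when the 4h-labelled and 4d-labelled Amh arrays were left out. Markers of other cell types were measured in the same arrays, and the part of RNA carried over in the IP was not tested. All 6 peritubular myoid markers, 5 of 8 macrophage markers and 3 of 7 endothelial markers were lower in Amh IP than in Amh total RNA, with list means over the arrays of 8.39 to 9.11 in IP and 9.75 to 10.65 in total RNA for the myoid list. Among 7 measured fetal Leydig markers 4 were lower in Amh IP than in Amh total RNA, led by Dlk1 (-2.43) and Gpc3 (-2.25). Over all genes, 3.94% were lower in Amh IP than in Amh total RNA. Dlk1 and Gpc3 were also lower in Amh IP than in Stra8 IP RNA (-2.32 and -1.80).

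**Figure D1:**
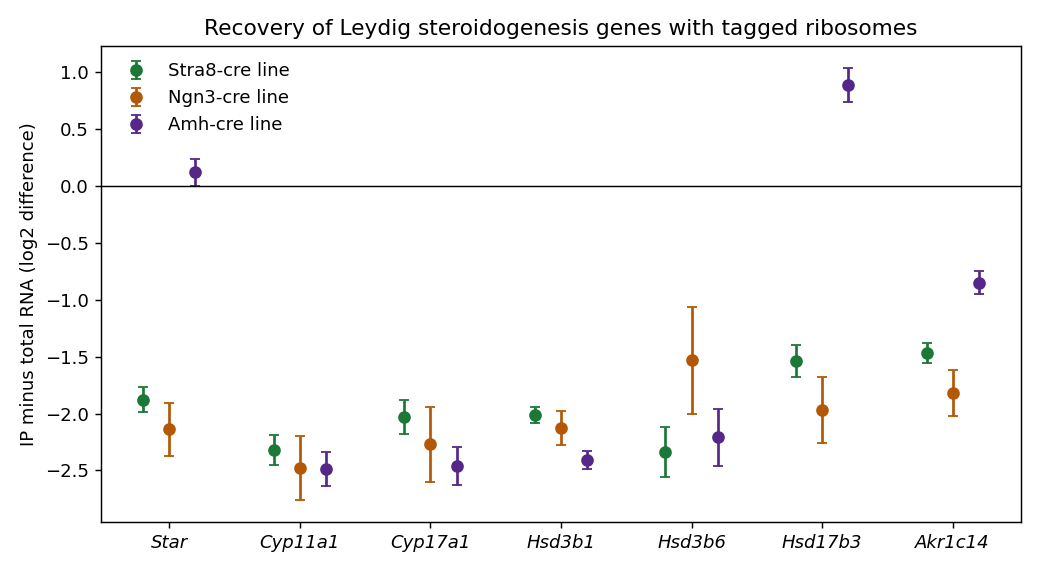
Log2 difference of IP minus total RNA (y axis) for the 7 measured genes (x axis) in the Stra8, Ngn3 and Amh lines; points are the fitted differences averaged over the times with both fractions and bars ± 1 SE. The germ cell lines lie between -1.47 and -2.48 for every gene, whereas in the Amh line Star (0.12) and Hsd17b3 (0.89) lie above 0 and Akr1c14 at -0.85.

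Other genes of the pathway were compared by list between Amh IP and Stra8 IP RNA, where 9.26% of all genes were higher and 7.54% lower. Of 4 measured electron transfer partners, 2 were higher in Amh IP than in Stra8 IP RNA, Cyb5a (2.20 ± 0.05), the cytochrome that favours the lyase reaction of CYP17A1, and Cyb5b (1.07). Of 10 genes of cholesterol supply 3 were higher, the outer membrane channel Vdac1 (1.69), the lipoprotein receptor Scarb1 (1.63) and the translocator protein Tspo (1.58). In the cholesterol synthesis list, 1 of 18 was higher (the isomerase Ebp, 2.67) and 4 were lower, the feedback regulator Insig1 (-1.99), the isomerase Idi1 (-1.46), the decarboxylase Mvd (-1.45) and the synthase Fdps (-1.05). Among 15 other steroid enzymes 3 were higher, Hsd17b11 (2.24), Hsd17b1 (1.64) and Akr1cl (1.17).

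Of 18 measured Leydig regulators and receptors, several of which Sertoli cells also express, 6 were higher in Amh IP than in Stra8 IP RNA (9.26% of all genes higher). The largest were the nuclear receptor Nr0b1 (3.02 ± 0.11), the transcription factors Gata6 (2.68) and Gata4 (2.47), and Dhh (2.62), the Sertoli ligand that acts on Leydig precursors. Nr5a1, steroidogenic factor 1, was higher by 2.34 ± 0.06 (limma adjusted p = 4.68e-37) and is named after its value was seen. Set against total RNA over all shared times, none of these 18 genes was higher in the Amh IP and 4 were lower, the interstitial factor Tcf21 (-2.48), the growth factor gene Igf1 (-2.04), the orphan receptor Nr2f2 (-2.01) and the platelet-derived growth factor receptor Pdgfra (-1.95). In that comparison 1.1% of all genes were higher and 3.94% lower. At 8d alone 5 of the 18 were higher in Amh IP than in Amh total RNA, Gata6 (1.36), Nr0b2 (1.30), Gata4 (1.26), Nr5a1 (1.11) and Dhh (1.03), and 6 were lower, where 4.7% and 5.76% of all genes were called higher and lower. These 5 are named after their values were seen.

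Over time, Hsd3b6 rose in whole testis and in both kinds of IP RNA. In Stra8 total RNA it had 9.26, 9.09, 7.85 and 9.16 at time 0, 9.70, 9.78, 9.94 and 9.64 at 24h, 11.75 and 11.49 at 4d, 12.41 and 12.72 at 6d, and 12.71 and 12.72 at 8d. In Amh total RNA it had 9.08 and 9.01 at 0, 10.11 and 10.17 at 24h, 10.96 and 11.09 at 48h, 11.33 and 12.75 at 6d, and 12.51 and 13.06 at 8d. In total RNA all arrays from 24h onwards exceeded every time 0 array of their line except the Amh arrays labelled 4d, at 8.92 and 8.66. The 8d level differed from time 0 by 3.87 ± 0.58 in Stra8 total RNA (14.7-fold, limma adjusted p = 3.82e-07; 3.38% of all genes higher) and by 3.73 ± 0.67 in Amh total RNA (13.3-fold, adjusted p = 1.29e-05; 3.46% higher). Over the whole courses, 3 of 7 genes were called in the Stra8 total course, 1 higher and 2 lower (4.9% and 2% of all genes), and 5 of 7 in the Amh total course, 1 higher and 4 lower (4.46% and 3.2%).

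The 4h arrays of Stra8 total RNA split for Hsd3b6, at 8.29 in replicate 1 and 12.20 and 11.59 in replicates 2 and 3, the replicates that also had low Cyp26a1. The Amh IP arrays labelled 4h, 9.54 and 8.88, likewise exceeded those at 0, 7.08 and 7.07. In IP RNA Hsd3b6 rose at a lower level. At 8d Hsd3b6 had 10.10 and 10.48 in Stra8 IP RNA, against 7.43 and 6.65 at 0 (3.25 ± 0.67, limma adjusted p = 8.84e-05; 4.38% of all genes higher), and 10.15 and 10.77 in Amh IP RNA, against 7.08 and 7.07 (3.39 ± 0.67, adjusted p = 6.30e-05; 2.93% higher). IP minus total RNA in the Amh line was -2.32 at 8d and -1.98 at 0 (SE 0.67 each), and all IP arrays of both times were below the total arrays of the same time.

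Taking the late times together, 6d and 8d against 0 in total RNA of the Stra8 and Amh lines, 1 of 7 genes was higher and 1 lower (2.07% and 1.34% of all genes). Hsd3b6 averaged 12.53 at 6d and 8d in 8 arrays and 8.94 at time 0 in 6 arrays, a difference of 3.58 ± 0.37 (12.0-fold, limma adjusted p = 2.08e-11) with no overlap. Hsd3b1, the isoform of both Leydig generations, averaged 9.36 at 6d and 8d and 9.74 at 0 (-0.38 ± 0.12, adjusted p = 0.00627), below 2-fold. The promoters of both isoform genes are shown because Hsd3b6 was called and Hsd3b1 was not. RefSeq's table for GRCm38.p6, in which 7 of the 9 genes had an entry, gives 250 bases before and 50 after the start. Both lie on the minus strand of chromosome 3, Hsd3b6 at chr3:98814394-98814693 and Hsd3b1 at chr3:98859745-98860044. Capitals mark a match to AGATAA, a form of the GATA factor motif, searched on both strands.
Hsd3b6: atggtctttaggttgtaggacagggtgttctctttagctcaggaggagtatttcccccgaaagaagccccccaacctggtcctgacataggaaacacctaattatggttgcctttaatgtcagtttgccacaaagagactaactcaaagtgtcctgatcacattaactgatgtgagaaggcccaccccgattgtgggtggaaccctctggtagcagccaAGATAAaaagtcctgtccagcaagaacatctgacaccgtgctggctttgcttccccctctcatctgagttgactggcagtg
Hsd3b1: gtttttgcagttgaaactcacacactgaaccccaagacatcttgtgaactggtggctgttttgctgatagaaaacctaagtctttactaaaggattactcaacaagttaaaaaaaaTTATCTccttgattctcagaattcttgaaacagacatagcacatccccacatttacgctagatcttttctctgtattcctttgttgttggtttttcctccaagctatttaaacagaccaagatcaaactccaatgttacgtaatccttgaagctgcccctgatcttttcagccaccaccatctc
The match lies at -31 from the start on the strand of the gene in Hsd3b6 and at -134 on the opposite strand, read as TTATCT, in Hsd3b1. AGATAA occurs in 11.2% of all 32851 promoters of the table and in none of the windows of Cyp11a1, Hsd17b3, Akr1c14, Insl3 and Lhcgr. The letters AAGGNCA, of the nuclear receptor half-site motif that steroidogenic factor 1 reads, occur in 20.3% of all promoters and in none of these windows, Hsd3b6 and Hsd3b1 included. Hsd3b1 and Hsd3b6 belong to a cluster of related genes, and cross-hybridisation between their probes was not analysed here.

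Hsd17b3 followed another course, with a trough at 12h. In Stra8 total RNA it had 11.34, 11.24, 11.65 and 11.26 at 0, 7.99 and 8.42 at 12h, between 8.97 and 10.26 at 24h, between 9.52 and 10.96 at 48h, with 8.51 and 8.62 at 8d. In Amh total RNA it had 11.04 and 10.90 at 0, 8.16 and 7.77 at 12h, 10.07 and 10.30 at 24h, then 8.98 and 9.37 at 8d. Both 12h pairs lay below every other array of their line and fraction. At 12h the gene was lower than at 0 by -3.17 ± 0.35 in Stra8 total RNA (8.99-fold, limma adjusted p = 1.96e-08) and by -3.0 ± 0.41 in Amh total RNA (adjusted p = 8.73e-07), where 0.176% and 0.512% of all genes were lower. In Stra8 IP RNA it was lower by -2.99 ± 0.41 (adjusted p = 1.14e-06; 0.336% of genes lower) and in Amh IP RNA by -2.46 ± 0.41 (adjusted p = 1.37e-05; 0.682% lower).

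Set against 24h, a comparison added after the trough was seen, the 12h level was lower by -2.21 ± 0.41 in Amh total RNA (limma adjusted p = 0.000431), where 0.336% of genes were lower, by -1.93 ± 0.41 in Amh IP RNA (adjusted p = 0.000698), where 0.507% were, and by -1.45 ± 0.35 in Stra8 total RNA (adjusted p = 0.00814), where 0.0853% were. In Stra8 IP RNA the difference was -0.96 ± 0.41 (adjusted p = 0.277) and was not called (0.0401% of genes lower). Hsd17b3 was the sole gene of the 7 called in these comparisons. At 4h the Stra8 total arrays again split, with 11.26 in replicate 1 and 9.25 in both of the others.

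The late level of Hsd17b3 stayed below time 0, at an average of 9.14 at 6d and 8d against 11.17 at 0 in total RNA (-2.03 ± 0.23, limma adjusted p = 1.51e-10), with no overlap. In Stra8 IP RNA it had 6.77 and 7.04 at 8d, against 9.17 and 10.44 at 0 (-2.90 ± 0.41; 3.01% of genes lower). The Sertoli marker list also moved there, with means of 9.19 and 9.29 at 8d in Stra8 IP RNA, against 9.79 and 10.35 at 0. In Amh IP RNA it had 10.17 and 10.40 at 8d, against 11.65 and 11.43 at 0 (-1.25 ± 0.41, adjusted p = 0.0153; 2.69% of genes lower). IP minus total RNA in the Amh line was 0.57 ± 0.41 at 0, 1.11 ± 0.41 at 12h (1.97% of genes higher) and 1.11 ± 0.41 at 8d (4.7% higher), and was called at the last 2 of these times. The Amh gene, a Sertoli cell marker, also fell late in total RNA (-2.24 ± 0.17), one of 2 called among 11 Sertoli markers, the other being Gata1 (1.18). In that comparison 1.34% of all genes were lower and 2.07% higher. The mean of the Sertoli list lay between 11.49 and 11.64 at 6d and 8d, against 11.67 to 11.78 at time 0. The part of Sertoli cell numbers or RNA, in total or IP RNA, in the change of Hsd17b3 was not tested.

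**Figure D2:**
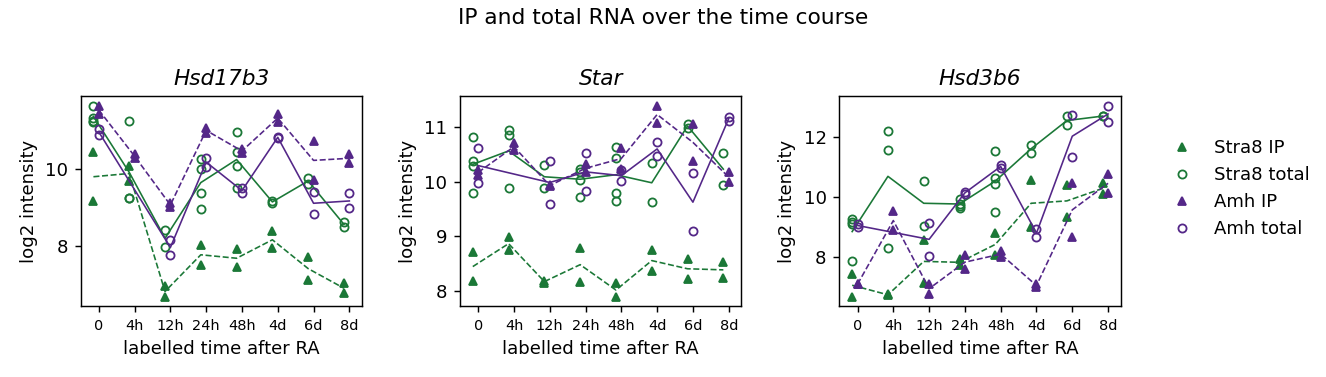
Log2 intensity (y axis) of Hsd17b3, Star and Hsd3b6 by labelled time after RA (x axis, not to scale) in IP RNA (triangles, dashed lines) and total RNA (circles, solid lines) of the Stra8 and Amh lines; points are arrays and lines join group means, with no Amh total arrays at 4h. Hsd17b3 is lowest at 12h, at 7.99 and 8.42 in Stra8 total RNA and at 9.11 and 9.03 in Amh IP RNA, and Star in Stra8 IP RNA (7.89 to 8.98) lies below all other Star arrays.

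Akr1c14 fell in whole testis of both lines and in Amh IP RNA. In Stra8 IP RNA its course was not called (limma F test, adjusted p = 0.184), with a largest difference of -0.73 ± 0.28 at 8d. Tested alone, that difference had a limma adjusted p of 0.0339 and was below 2-fold. In Stra8 total RNA Akr1c14 had 9.13, 8.47, 8.81 and 8.87 at 0, 7.80 and 7.52 at 4d, and 7.58 and 7.53 at 8d. It was lower at 8d than at 0 by -1.27 ± 0.24 (limma adjusted p = 2.97e-05; 1.48% of genes lower). It was not called at 12h (8.36 and 8.64, -0.32 ± 0.24), 24h (-0.47 ± 0.20), 48h (-0.65 ± 0.20) or 6d (-0.71 ± 0.24). At 4h it had 7.79, 7.78 and 7.74, in arrays with narrow signal range (replicate 1) or low Cyp26a1 (replicates 2 and 3). In Amh total RNA it had 8.66 and 8.70 at 0, 7.43 and 7.47 at 6d, and 7.94 and 7.92 at 8d; its course was called through 6d (-1.23 ± 0.28, adjusted p = 0.0108). Without 1 or the other Amh total 6d array the difference was -1.21 or -1.26, and the adjusted p was 0.0707 or 0.0565, so the size held and the call did not. In Amh IP RNA it had 8.31 and 8.13 at 0, 6.74 and 6.39 at 6d, and 6.68 and 6.81 at 8d (-1.48 ± 0.28 at 8d, adjusted p = 2.80e-05). Late levels in total RNA averaged 7.76 at 6d and 8d and 8.75 at 0, and did not overlap. That difference, -0.99 ± 0.15 (adjusted p = 4.39e-07), falls just short of 2-fold. It was called at -1.00 with the replicate block, and at -1.00 to -1.05 without any 1 of 3 arrays (Stra8 total 0 replicate 2, Stra8 total 6d replicate 2, Amh total 0 replicate 1).

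Star, Cyp11a1, Cyp17a1 and Hsd3b1 were not called in the late whole-testis comparison. Star averaged 10.51 at 6d and 8d and 10.31 at 0 (0.20 ± 0.18, limma adjusted p = 0.403), Cyp11a1 averaged 10.27 at 6d and 8d and 10.88 at 0 (-0.61 ± 0.22, adjusted p = 0.0216), and Cyp17a1 averaged 11.70 at 6d and 8d and 12.15 at 0 (-0.45 ± 0.26, adjusted p = 0.162). Each of these genes had overlapping arrays at the late times and at 0. In the Stra8 total course none of the 4 reached 2-fold at any time, the largest differences being 0.70 ± 0.28 for Star at 6d and -0.70 ± 0.35 for Cyp11a1 at 4d. The Amh total course called Cyp11a1 (-1.59 ± 0.40 at 6d) and Cyp17a1 (-1.75 ± 0.46 at 6d). The call of Cyp17a1 was also lost when only the compared groups were fitted (limma adjusted p = 0.103). The 6d replicates differed widely, with Cyp11a1 at 8.19 in replicate 1 and 10.29 in replicate 2, and Cyp17a1 at 8.84 in replicate 1 and 11.65 in replicate 2. Without replicate 1 the largest difference of Cyp17a1 was -0.35 and its call was lost, while the course of Cyp11a1 was called through another time, with its largest difference (-1.02) at 12h, where the comparison of 12h with 0 alone was not called (adjusted p = 0.0972). With Akr1c14 also below the threshold, the count of called genes was then 3.

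**Figure D3:**
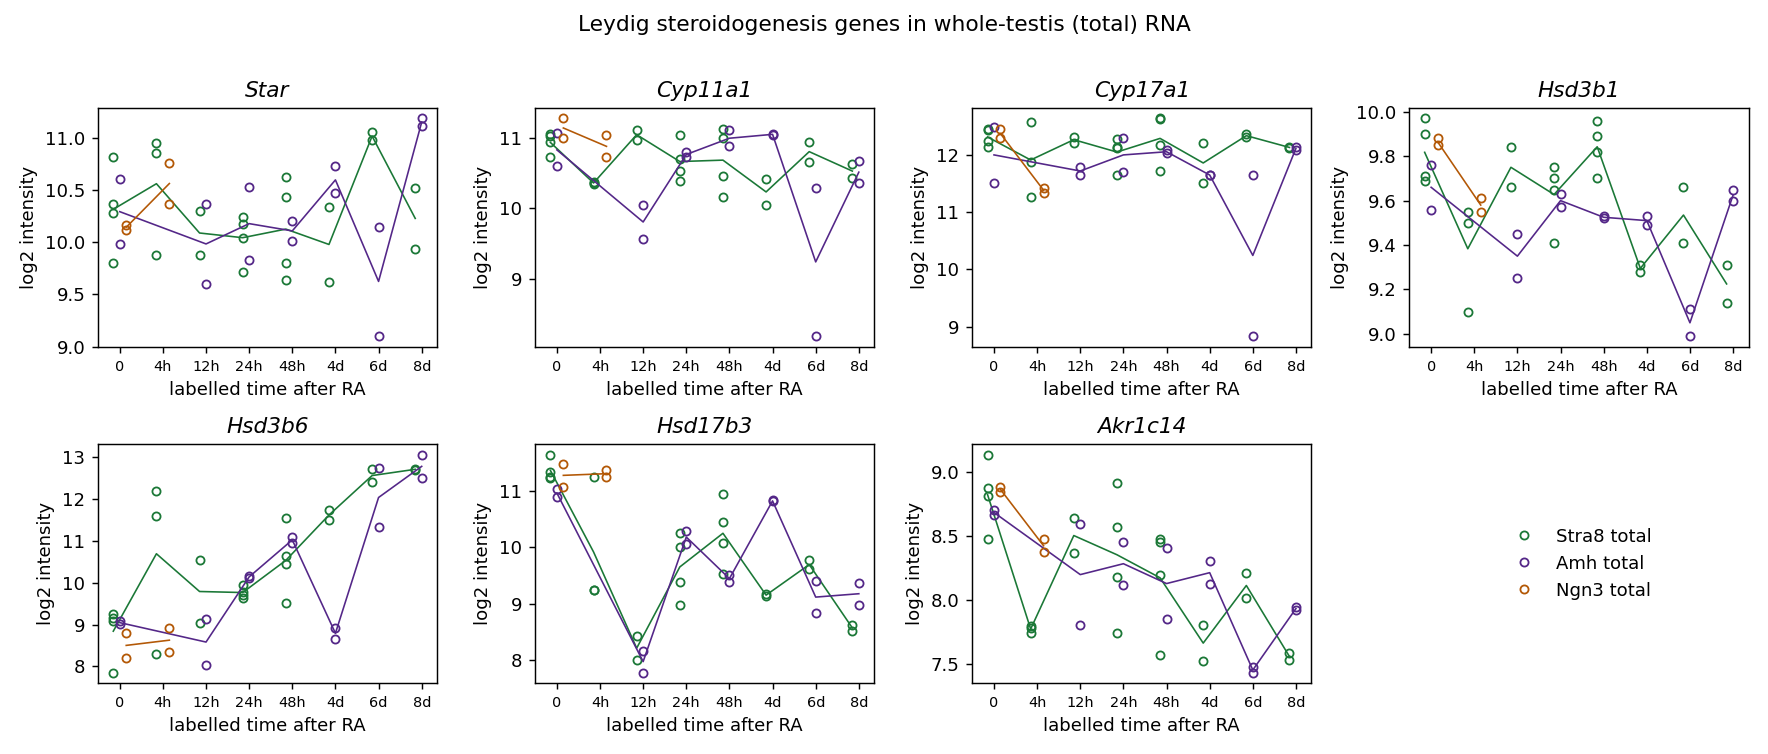
Log2 intensity (y axis, scaled per gene) of the 7 measured genes in whole-testis RNA by labelled time after RA (x axis, not to scale) in the Stra8, Amh and Ngn3 lines; points are arrays and lines join group means, with no Amh arrays at 4h. Hsd3b6 climbs to 12.51 or more at 8d in both lines, Hsd17b3 has its trough at 12h, and Amh 6d replicate 1 lies far below its partner for Cyp11a1 (8.19) and Cyp17a1 (8.84).

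IP RNA courses added few calls. In the Stra8 IP course 3 of 7 genes were called, 1 higher and 2 lower (6.8% and 4.01% of all genes): Hsd3b6, Hsd17b3 and Hsd3b1. Hsd3b1 had 7.72 and 8.50 at 0, 6.59 and 6.99 at 6d, and 7.07 and 6.93 at 8d in Stra8 IP RNA (-1.32 ± 0.21 at 6d, limma adjusted p = 2.06e-06). It fell to -0.92, under 2-fold, without Stra8 IP 0 replicate 2. In the Amh IP course 5 of 7 were called, 2 higher and 3 lower (3.67% and 3.96% of all genes). Hsd3b6, Hsd17b3 and Akr1c14 kept their calls when the 4h-labelled and 4d-labelled Amh arrays were left out. Star (1.06 ± 0.33, from 11.07 and 11.39 at labelled 4d against 10.13 and 10.21 at 0) had a largest difference of 0.55 without them (adjusted p = 0.341), and Cyp17a1 (-1.03 at 6d) an adjusted p of 0.0729.

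**Figure D4:**
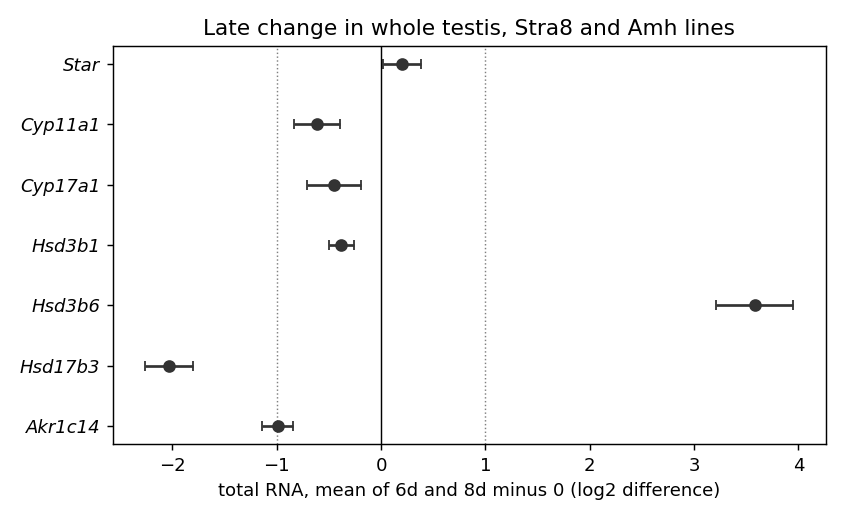
Log2 difference in whole-testis RNA (x axis) of the mean of 6d and 8d minus time 0, averaged over the Stra8 and Amh lines (8 and 6 arrays), for the 7 measured genes (y axis); bars are ± 1 SE and dotted lines mark 2-fold. Hsd3b6 stands at 3.58 and Hsd17b3 at -2.03, Akr1c14 at -0.99, and the other genes lie between -0.61 and 0.20.

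The late changes of the lines were compared directly. The late change in the Amh line less that in the Stra8 line gave 0 of 7 calls by limma (0 at an unadjusted p under 0.05, with 0.115% of all genes called), from -0.73 ± 0.52 for Cyp17a1 to 0.42 ± 0.46 for Hsd17b3. For Hsd3b6 it was -0.44 ± 0.75. Levels in total RNA of the Stra8 and Amh lines over the 7 shared times also gave 0 of 7 calls (2 at an unadjusted p under 0.05, with 0.0301% of all genes called), the largest being 0.49 ± 0.17 for Cyp17a1 (adjusted p = 0.0316, below 2-fold). Of all 19938 genes, 1627 had an unadjusted p under 0.05 for the difference in late change and 6809 for the levels.

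At 4h in the Ngn3 line, where Cyp26a1 had 8.04 and 7.88 at 4h against 6.22 and 5.98 at 0 in total RNA, limma called 0 of 7 genes (1 at an unadjusted p under 0.05, with 0.301% of all genes called). Cyp17a1 had 11.34 and 11.42 at 4h, against 12.29 and 12.44 at 0 (-0.98 ± 0.46, adjusted p = 0.674). The arrays did not overlap, but the difference did not pass the test. In Ngn3 IP RNA the same gene had 8.92 and 8.94 at 4h, against 10.17 and 10.40 at 0 (-1.36 ± 0.46, adjusted p = 0.154). Hsd17b3 in Ngn3 total RNA was 0.03 ± 0.41 from its time 0 level and Hsd3b6 0.13 ± 0.67. The 4h change in IP RNA, Ngn3 line less Stra8 line, called 0 of 7 (0 at an unadjusted p under 0.05, 0% of all genes called). Ngn3 total RNA less Stra8 total RNA at 0 and 4h called 0 of 7 (2 at an unadjusted p under 0.05, 0.0201% of all genes called). For Hsd3b6 that difference was -1.21 ± 0.42 (adjusted p = 0.0653). Without Stra8 total 4h replicate 1, as without the 3 narrow arrays, it was -1.81, and without Stra8 total 0 replicate 3 it was -1.37, and all of these were called. Of all 19938 genes, 1313 had an unadjusted p under 0.05 for the 4h change in Ngn3 total RNA. The counts were 1991 for the 4h change in IP RNA between lines and 4973 for Ngn3 less Stra8 total RNA.

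Several markers of the fetal Leydig generation fell in whole testis, where 1.34% of all genes were called lower late and 2.07% higher. Of 7 measured, 4 were lower at 6d and 8d than at 0 and none higher (median -1.27 beside 0.012 for all genes): Inhba, a subunit of activin (-1.80 ± 0.14, limma adjusted p = 3.09e-15), Dlk1, a Notch ligand homologue (-1.65 ± 0.11), the thrombospondin Thbs2 (-1.55 ± 0.13) and the glypican Gpc3 (-1.27 ± 0.12). Each was called lower at 8d in both lines. In Stra8 IP against Stra8 total RNA, Inhba (-1.14) and Thbs2 (-1.15) were called lower, whereas Dlk1 and Gpc3 were not, unlike the 7 steroidogenesis genes. In the Ngn3 line Gpc3 was called lower (-1.17 ± 0.15, limma adjusted p = 2.95e-09), as were Inhba (-1.18) and Thbs2 (-1.55), and Dlk1 was not. There 6.75% of all genes were lower. The cells that carry Dlk1 and Gpc3 RNA were not tested. The endothelial list averaged 8.75 to 9.41 per array at 6d and 8d, against 9.48 to 9.68 at 0, and its part in this fall was not tested. Of 7 measured markers of the adult generation, 0 were called late by limma (6 at an unadjusted p under 0.05, median -0.15). Over all 19938 genes, 10052 had an unadjusted p under 0.05. Within the total RNA courses Bhmt, a methyltransferase of adult mouse Leydig cells, was the only marker of this list called. It was higher at 6d in Stra8 total RNA (1.21 ± 0.22) and at 8d in Amh total RNA (1.17 ± 0.25). Against time 0 it was called at no other time in total RNA. In these courses 4.9% and 4.46% of all genes were called higher.

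Among 15 other steroid enzymes 2 were lower late and none higher, where 1.34% of all genes were lower and 2.07% higher. Hsd17b1, a second enzyme that reduces 17-ketosteroids and is expressed in fetal mouse Sertoli cells, fell by 3.34 on the log2 scale at 6d and 8d (SE 0.18, limma adjusted p = 3.16e-21). It was lower already at 12h, by -2.88 ± 0.27 in Stra8 total, -3.0 ± 0.32 in Amh total and -3.08 ± 0.32 in Amh IP RNA. Hsd11b2, which inactivates corticosterone, was lower late by -1.28 ± 0.09 (adjusted p = 1.27e-17).

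The supply side of the pathway was not called in the late comparison. Limma called 0 of 4 electron transfer partners (2 at an unadjusted p under 0.05), 0 of 10 genes of cholesterol supply (7), 0 of 18 of cholesterol synthesis (13) and 0 of 18 Leydig regulators and receptors (16 at an unadjusted p under 0.05, median -0.53). Over all 19938 genes, 10052 had an unadjusted p under 0.05 in this comparison, and 2.07% were called higher and 1.34% lower. Nr0b1 was called higher at 4h by limma in Ngn3 total RNA (1.15 ± 0.31, adjusted p = 0.0482), where 0.301% of all genes were called. It was also called at 4h in Ngn3 IP RNA (1.42 ± 0.31, adjusted p = 0.00342) and in Stra8 IP RNA (2.01 ± 0.31, adjusted p = 2.60e-05). In Amh total RNA it was called at labelled 4d (1.02 ± 0.31, adjusted p = 0.0323). Of other cell types' markers in whole testis, 1 of 10 germ cell markers was higher late (Sycp3, 2.04 ± 0.13), and limma called 0 of 6 peritubular myoid, 0 of 8 macrophage and 0 of 7 endothelial markers (2, 4 and 6 at an unadjusted p under 0.05). The germ cell list averaged 10.47 to 10.82 per array late and 10.18 to 10.71 at 0. Their part in the changes of the steroid genes was not tested.

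Genes with the most similar profiles were sought by Pearson correlation of group means with the average centred profile of the 7 genes. The 7 genes themselves and genes with provisional names, such as Gm or Rik names, were left out of the ranking. Over all 35 groups the highest were Cd53 (0.954), Mansc4 (0.952), Arhgdib (0.947) and Serpinb1a (0.946), followed by Mamdc2, Actg2, Htra1 and Tpm2 (0.942). Of these groups 18 were IP and 17 total RNA. Over the 17 total RNA groups they were Psmd10 (0.871), Cd151 (0.866), Efhb (0.846), Selenoo (0.828), Jagn1, Erich1, Ing2 and Galk2 (0.805). Cyp11a1 correlated with Hsd3b1 at 0.78 and with Cyp17a1 at 0.73 over the 17 total RNA groups, and with Hsd3b6 at -0.36. The groups share lines and times, so these correlations describe these arrays.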

How the data were processed

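Expression was measured on 77 single-colour Affymetrix gene-level arrays. The deposited values are intensity on a linear scale made by the authors with RMA, per the submitters' processing notes, which give neither version nor settings. RNA was extracted with RNeasy columns, amplified with Ovation V2 and labelled with Encore biotin, per the labels' protocols. The log2 of each deposited value was taken without further scaling. Of 28853 probe sets, 5443 were not listed with a gene and 1621 were listed with several, and both were left out. For 999 genes with several probe sets the one of highest mean was used, leaving 19938 genes.

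One model in limma 3.58.1 (R 4.3.3, data.table package, version 1.17.8) gave each of 35 groups its own mean, with the empirical Bayes prior following mean signal; 31 groups held 2 arrays, 1 held 3 and 3 held 4. Two-sided p-values were adjusted over all genes. Courses were moderated F tests, and the value given is the largest difference from time 0. The number of arrays limits precision and, at low signal, so does a floor near 25.09 to 26.32 units. Motifs were searched and plots drawn with Python 3.11.15 (pandas 2.3.3, matplotlib 3.10.9). The fit was tested on simulated data.

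The genes, the lists and the naming rule (every member, and up to 4 called genes per list and comparison with the largest difference) were chosen with earlier results of these data known. Comparisons of 12h with 24h, of the 4h change between Ngn3 and Stra8 IP RNA, and of Amh IP with total RNA at single times were added after values were seen. Whether same-numbered replicates deviate together from their group means was checked (correlation over 0.1): 7 of 7 IP and total pairs passed it in the Amh line (0.121 to 0.572), 2 of 2 in the Ngn3 line and 4 of 8 in the Stra8 line, while times paired with time 0 passed in 1 of 13, 0 of 2 and 5 of 14. Alternatives were no fold minimum, quantile normalization, median centring, averaging the probe sets of a gene, a filter removing the 30% of genes with the dimmest signal, the replicate block, the compared groups alone, arrays of doubtful label left out, and each array left out in turn. Leaving out the 3 arrays of narrow signal range was chosen after seeing the data.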

Additional observations from a re-analysis of the deposited data

Results flagged for a closer look

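In Stra8 total RNA at time 0, Hsd3b6 stood at 7.85 in replicate 3, against 9.26, 9.09 and 9.16 in the other replicates, a gap of 0.879 of the range of the group. It was the single array that stood this far from its group among 21 sets of 4 arrays tested (7 genes in each group of 4), where chance gives about 1 in 20.

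The difference of IP minus total RNA between the Amh and Stra8 lines passed its own test for Star, at 2.03 ± 0.17 log2 units, and for Hsd17b3, at 2.65 ± 0.21 log2 units.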

How the results depend on the processing

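IP against total RNA gave the same counts of called genes (7 in Stra8, 7 in Ngn3, 4 in Amh) without the arrays of doubtful label or narrow range and with the replicate block. With no fold minimum the difference of IP minus total between Amh and Stra8 had 4 calls (2 as reported). Amh IP minus Stra8 IP then had 6 (2) and the Stra8 total course 5 (3). The late whole-testis change had 5 (2) and Stra8 total minus Amh total 1 (0). How many of all genes pass without a fold minimum was not counted. At an unadjusted limma p under 0.05 there were 13113, 13599, 13996, 10052 and 6809 of 19938 genes, in the same order. The Amh IP course had 3 calls, not 5, when the 4h-labelled and 4d-labelled Amh arrays were left out. Ngn3 minus Stra8 total RNA had 1, not 0, without the 3 arrays of narrow range. Leaving out each array in turn gave 3 to 6 calls for the Amh total course (3 without Amh total 6d replicate 1), 3 to 5 for the Amh IP course (3 without Amh IP 4d replicate 2) and 0 to 1 for Ngn3 minus Stra8 total RNA. The course value turned sign without 1 array for 3 genes, since the course takes the largest difference at any time: Star in Amh total RNA (0.86 as reported, -1.20 without 6d replicate 2, range -1.20 to 1.18), Cyp11a1 in Stra8 IP RNA (-0.86 as reported, 1.13 without 4d replicate 2, range -1.35 to 1.13) and Cyp17a1 in Amh IP RNA (-1.03 as reported, 1.02 without time 0 replicate 1, range -1.84 to 1.02). The replicate block moved the Amh IP course to 4 calls (Cyp17a1 at -1.03, limma adjusted p = 0.0657) and the late whole-testis change to 3 (Akr1c14 at -1.00), left 46 calls over the comparisons of each time with 0 (47 as reported), and changed no other call. Quantile normalization ended the call of Cyp17a1 in the Amh IP course (-0.97, limma adjusted p = 0.0953), and so did several left-out arrays. The causes were not tested. Groups of 2 arrays and the signal floor limit what could be called.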
